A study of Mus musculus with 10 samples.

Results

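The comparison described here sets mouse testis cells that had spent 1 week in culture against freshly sorted cells at 0 weeks, and covers 4 of the 10 arrays of the series, 2 per group. The 1 week group held cells of adult DBA/2 testes that had been selected magnetically with an antibody against CD9 and then grown for 1 week in Iscove-type medium that held 1% foetal serum, rat GDNF at 15 ng/ml and human FGF2 at 10 ng/ml. The 0 week group held cells selected in the same manner, with no time in culture. The labels call every sample spermatogonial stem cells, although CD9 also lies on other testis cells, and the other 6 arrays held 2 and 3 week cultures and established germline stem cells. The labels leave unstated whether the paired arrays of each group came from different animals or dishes. The p-values therefore rest on a spread that may be technical alone.

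Spermatogonial stem cells are the self-renewing germ cells of the testis. GDNF, which Sertoli cells and other somatic cells secrete, acts on them through the receptor pair GFRA1 and RET, and FGF2 acts beside it. In the body their daughters pass through differentiating spermatogonia, meiosis, and round and elongating spermatids, and each of these stages transcribes genes of its own, many of them germ cell copies of widespread enzymes. Fibroblasts and other somatic cells that attach to a dish take up growth factors from serum, spread on a matrix that they lay down and divide.

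Of 20174 genes, 11664 (57.8%) changed at an adjusted p under 0.05 in limma, a linear model test, and 6113 (30.3%) rose while 5551 (27.5%) fell at 1 week. By at least 2-fold, 2526 genes (12.5%) rose and 1987 (9.85%) fell. Falls outnumbered rises among larger changes, with 241 rises and 478 falls of at least 8-fold and 20 rises and 67 falls of at least 32-fold. With more than every second gene called, a gene list is read below against these shares and against the median change of all genes, -0.04. The shares differed with signal. Of 8869 genes above the median signal in both groups 4159 rose and 2350 fell, and of 8061 below it in both 519 rose and 1731 fell. A list of bright genes can therefore pass the share of all genes that rose without differing from genes of like signal. The lists were drawn up with earlier results of these data known, all changes are log2 signal at 1 week minus log2 signal at 0 weeks, given with the standard error of the fit where it stands after ±, and n was 2 arrays per group throughout.

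Replicate arrays correlated at 0.995 at 1 week and 0.996 at 0 weeks across genes, which are not independent replicates, and arrays of the 2 groups at 0.707 to 0.721. Median signals were 116 and 112 on the 1 week arrays, against 124 and 121 on the 0 week arrays, and lower quartiles lay between 59.5 and 69.7. The signals carry no background level, so a fall to around 60 or a rise from there is a lower bound. The number of arrays limits the precision. In a bulk sample, fewer cells of a type and less RNA per cell cannot be told apart.

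The labelled cell type was checked through its defining markers. Gfra1, the GDNF receptor, measured 587 and 563 at 1 week, against 225 and 198 at 0 weeks (1.45 ± 0.08, adjusted p = 1.3e-07), while Zbtb16, which keeps spermatogonia undifferentiated, measured 339 and 349.6 at 1 week, against 381 and 387 at 0 weeks (-0.16 ± 0.06, adjusted p = 0.052). Zbtb16 did not pass, but it fell with quantile (-0.31) and cyclic loess (-0.59) scaling and under 5 other alternatives. Id4, a marker of stem cell activity, measured 226 and 270.1 at 1 week, against 234 and 274 at 0 weeks (-0.03 ± 0.13). These markers lay above the array median on all 4 arrays. Ddx4, an RNA helicase of the germ line, fell to 239.9 and 293 at 1 week, against 2509 and 2532 at 0 weeks, and Dazl, a germ cell translation factor, to 701 and 734 at 1 week, against 1160.4 and 1266 at 0 weeks. Vim, an intermediate filament of mesenchymal cells, had 8221 and 8501 at 1 week, against 1664 and 1868 at 0 weeks, and Dcn, a small proteoglycan of fibroblasts, had 8178 and 8227 at 1 week, against 3734 and 4529.5 at 0 weeks. Germ cell and mesenchymal markers thus both lay above the median in each group.

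Among genes with signals above the array median in both groups, 13 of the 15 largest rises are given here, and they ran from 4.08 to 5.66. Fbln2, a matrix fibulin, measured 6553 and 6331 at 1 week, against 130.1 and 125 at 0 weeks (5.66 ± 0.08, adjusted p = 2.2e-11), and Fn1, the adhesion protein fibronectin, 9913 and 10348 at 1 week, against 318 and 376 at 0 weeks (4.87 ± 0.11). The rule took only genes whose groups did not overlap, as held for 80.5% of all genes, so the separation of these genes is no result. Cdkn1a, which encodes the cell cycle inhibitor p21, had 3242 and 3649.6 at 1 week, against 172 and 175 at 0 weeks (4.31 ± 0.10). Ccl2, a chemokine that draws monocytes, and Csf1, the growth factor of macrophages, rose by 4.50 and 4.08. The mesenchymal transcription factor Prrx1 (4.43), the cadherin Cdh11 (4.30), the transcription factor Runx1 (4.13), the surface protein Ly6a (4.09), the filamin Flnc (4.38), the collagen Col8a1 (4.34), Emp1 (4.56) and Ugdh (4.12), which makes a sugar of glycosaminoglycans, completed this set.

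The 15 largest falls by the same rule ran from -5.18 to -4.32. Prm1, the protamine that packs sperm DNA, measured 495 and 320.4 at 1 week, against 13034 and 12946 at 0 weeks (-5.03 ± 0.17, adjusted p = 2.6e-09). Smcp, a protein of the sperm mitochondrial sheath, measured 118 and 115 at 1 week, against 3704 and 4811 at 0 weeks (-5.18 ± 0.13), and Odf1, of the outer dense fibres of the tail, 114 and 117 at 1 week, against 4000.1 and 3920.0 at 0 weeks (-5.10 ± 0.08). The same rule chose these falls, which fixes their direction on every array. Sord, the sorbitol dehydrogenase that makes fructose from sorbitol, given by the brighter of 2 transcript clusters, fell by 4.56. The glucose transporter gene Slc2a3 fell by 4.37. Ybx2, which binds and stores spermatid mRNA, fell by 4.91, the sperm surface protein gene Spa17 by 4.99, and Tcp11 (-4.47) and Oxct2a (-4.36), the ketone body enzyme of sperm, fell as well. Smim24, Lelp1, Ppp1r32, 2610318N02Rik, 1700018B24Rik and 1110017D15Rik fell, with values from -5.14 to -4.32.

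**Figure D1:**
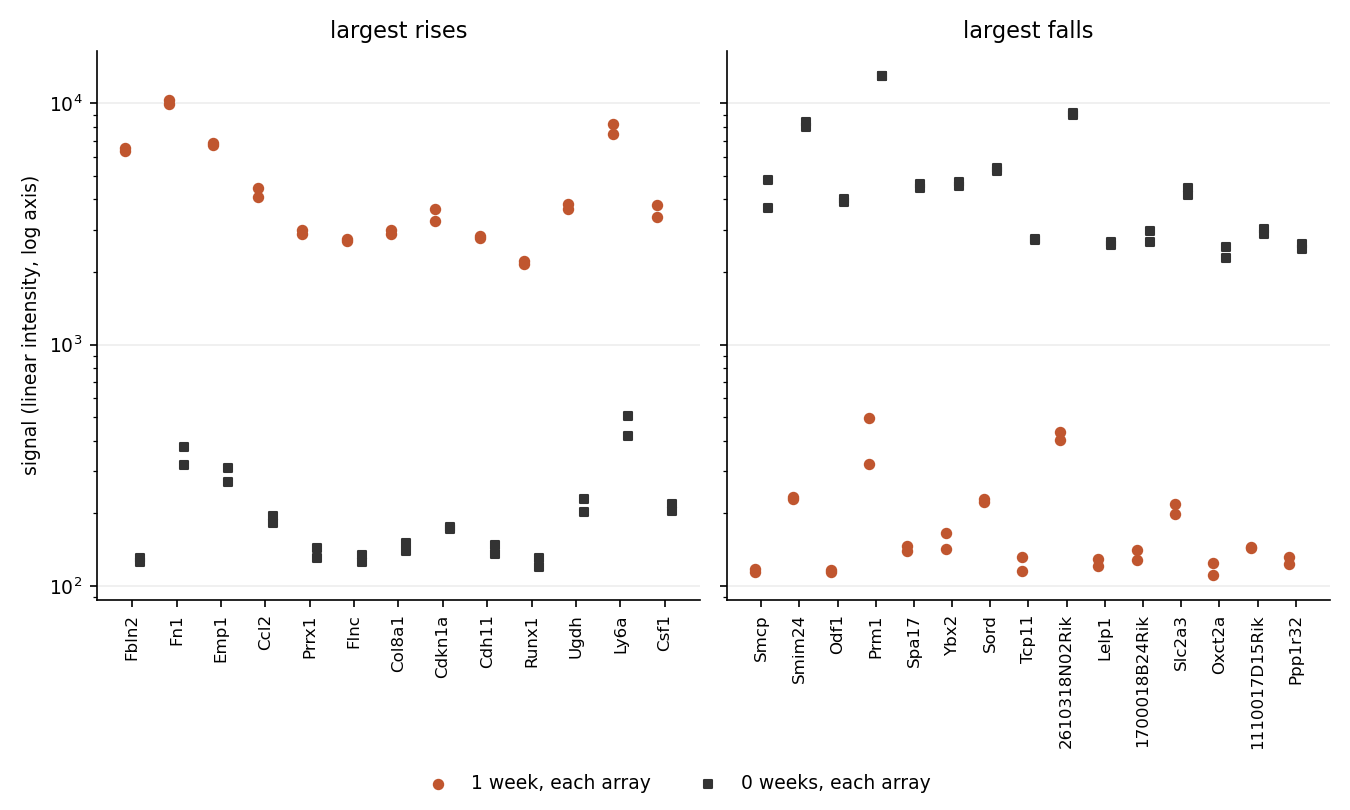
Signal on each array (linear intensity on a log axis) of 13 of the 15 largest rises (left) and the 15 largest falls (right) among genes above the array median in both groups, with 1 week arrays as circles to the left and 0 week arrays as squares to the right. The genes were chosen for large changes without overlap of the groups. Prm1, for example, had 495 and 320.4 at 1 week, against 13034 and 12946 at 0 weeks.

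Germ cell genes were grouped by the stage at which they are best known. In the list of undifferentiated spermatogonia, 12 of 23 rose, 0 fell and 11 did not pass, with a median change of 0.36. Bcl6b, a transcription factor induced by GDNF, measured 377 and 353 at 1 week, against 132 and 116 at 0 weeks (1.56 ± 0.11, adjusted p = 7.5e-07), Ret rose by 1.09 and the retinoic acid receptor gene Rarg by 1.03. In the list of differentiating spermatogonia, 6 of 15 fell, 1 rose and 8 did not pass, with a median change of -0.23. Kit, the receptor of stem cell factor, measured 119.9 and 108 at 1 week, against 266 and 298 at 0 weeks (-1.30 ± 0.08), and Dmrtb1, a transcription factor of the passage from mitosis to meiosis, fell by 1.34. The member that rose, Crabp1 (2.74), encodes a retinoic acid binding protein that embryonic mesenchyme also makes. With cyclic loess scaling 10 members of this list fell, and in the list of undifferentiated spermatogonia 9 rose, 2 fell and the median was 0.14.

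Later stages fell almost as a whole. In the list from preleptotene to zygotene, the entry into meiosis, 26 of 28 fell, 1 rose and 1 did not pass, with a median change of -1.05. Meioc, which keeps cells in meiotic prophase, measured 81.5 and 93.2 at 1 week, against 1182 and 1151 at 0 weeks (-3.74 ± 0.18), the synaptonemal complex genes Sycp2 and Syce1 fell by 3.58 and 3.37, and the meiotic cohesin gene Stag3 fell (-3.02). From pachytene to diplotene all 27 members fell, with a median of -2.90. Tdrd6, a component of germ cell granules, measured 69.2 and 60.8 at 1 week, against 2566 and 2344 at 0 weeks (-5.24 ± 0.12), and Clgn, the chaperone calmegin, 59.8 and 63.4 at 1 week, against 1819 and 1912 at 0 weeks (-4.92 ± 0.08). The round spermatid list held 23 falls among 24 genes and 1 that did not pass (median -3.0), and all 23 elongating spermatid genes fell (median -4.44). Akap4, a scaffold of the sperm tail, measured 50.6 and 46.3 at 1 week, against 1661 and 1969 at 0 weeks (-5.22 ± 0.09), Oaz3, the antizyme of spermatids, 66.3 and 78.9 at 1 week, against 4124 and 4465 at 0 weeks (-5.89 ± 0.11) and Meig1, of the manchette, fell by 5.49. The medians of these lists thus ran 0.36, -0.23, -1.05, -2.90, -3.0 and -4.44 in order of development, without a test of the differences between them. In the same order, 12 of 23, 12 of 15, 18 of 28, 27 of 27, 23 of 24 and 22 of 23 members lay above the array median at 0 weeks. A dim gene has little room to fall, and the part of starting signal in these medians was not tested.

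**Figure D2:**
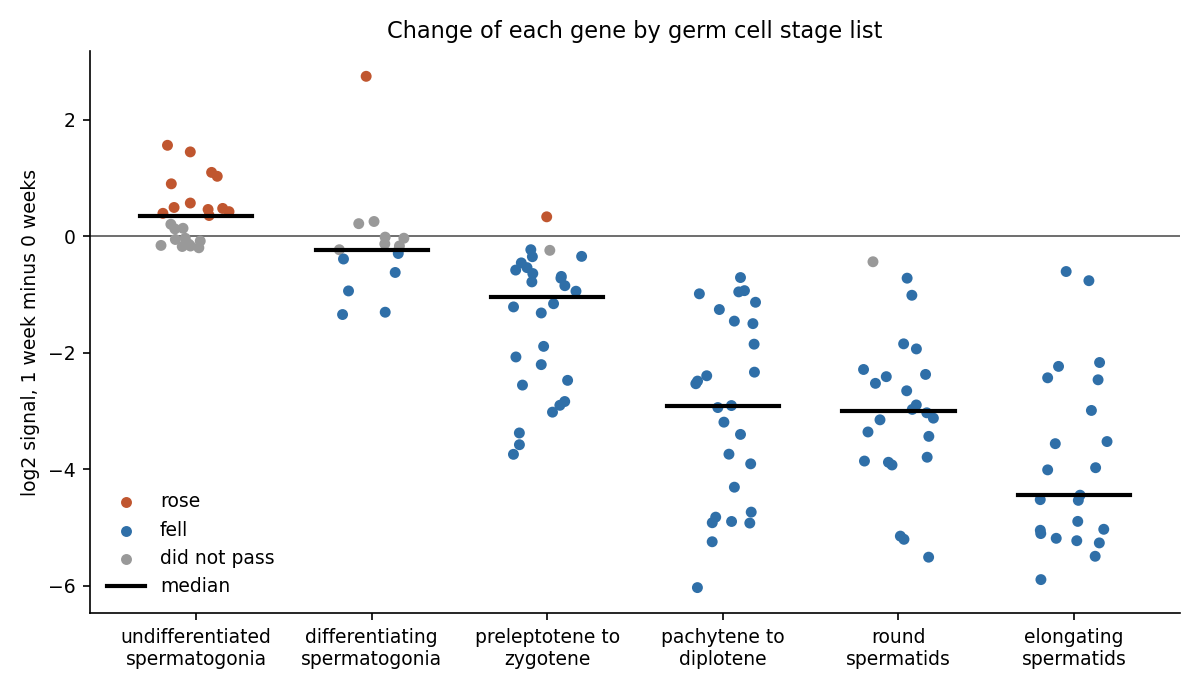
Change in log2 signal (1 week minus 0 weeks, vertical axis) of every measured gene in 6 stage lists of the male germ line, ordered by development from left to right, with the list median as a bar. Medians lie at 0.36 for undifferentiated spermatogonia and -4.44 for elongating spermatids, and the spermatid columns hold no gene that rose. Starting signals at 0 weeks differ between the lists.

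Genes of sperm structures fell too. Of axonemal dyneins, radial spokes and related tail genes, 28 of 31 fell, 0 rose and 3 did not pass, with a median change of -2.50. Dnah8, a heavy chain of the outer dynein arm, measured 76.5 and 80.03 at 1 week, against 4876 and 4558 at 0 weeks (-5.91 ± 0.08), and Lrrc6, needed to assemble dynein arms, fell by 4.64. All 28 genes of the acrosome and egg binding fell (median -2.62), among them Dkkl1 (-5.51), Adam3 (-5.26), Spink2 (-5.25) and Acrv1 (-5.20). Dkkl1 measured 114 and 96.8 at 1 week, against 5145 and 4409 at 0 weeks. Of sperm ion channels and transporters 14 of 16 fell (median -3.11), including Catsperd and Catsperg1 of the sperm calcium channel (-4.09 and -3.65), Slc26a8 (-4.35) and the sodium pump Atp1a4 (-4.77). The member that rose, the calcium pump Atp2b4 (1.12), is made in many tissues. A list of testis kinases and phosphatases that also held Plcz1, the sperm factor that activates the egg, fell in 17 of 20 cases (median -2.14). Mak was at -4.49, Stk33 at -4.10, Tssk3 at -3.31 and Plcz1 at -3.43. Of germ cell histone variants and chromatin proteins 12 of 15 fell and 3 did not pass (median -2.43), and the transition proteins Tnp2 and Tnp1, which replace histones ahead of protamines, fell by 5.04 and 4.01.

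Many germ cell genes have a counterpart that most tissues use, and 39 of 44 listed pairs were measured on both sides. The germ cell form fell in 36 pairs, and the widespread form rose in 31, with medians of -2.68 and 0.94. In 28 pairs the germ cell form fell while its counterpart rose. Gapdhs, the glycolytic dehydrogenase of the sperm tail, measured 101 and 92 at 1 week, against 3606 and 3778 at 0 weeks (-5.26 ± 0.14), and Gapdh 10312 and 9895 at 1 week, against 5258 and 5283 at 0 weeks (0.94 ± 0.06). Psma8, the proteasome subunit of meiotic cells, measured 73.7 and 76.4 at 1 week, against 471 and 491 at 0 weeks (-2.68 ± 0.06), and its counterpart Psma7 397 and 447 at 1 week, against 114 and 133 at 0 weeks (1.78 ± 0.10). Gapdhs and Psma8 thus fell while their counterparts rose.

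Pairs of many cell functions moved in opposite directions. In the respiratory chain, Cox6b2 (-2.29), Cox8c (-2.91) and Cox7b2 (-1.40) fell, and Cox6b1, Cox8a and Cox7b rose by 1.81, 1.49 and 1.91. Among cohesins, Smc1b (-2.55) and Stag3 (-3.02) fell, and Smc1a and Stag2 rose by 1.42 and 1.19. Of ribosomal proteins, Rpl39l and Rpl10l fell by 2.04 and 1.20, while Rpl39 and Rpl10 rose by 1.48 and 1.25. The testis histone gene H2bc1 fell by 3.65 and H2bc4 rose by 3.27, and the spermatid linker histone gene Hils1 fell by 2.43 and H1f2 rose by 2.58. The subunits of calcineurin, a phosphatase, divided likewise, with Ppp3cc and Ppp3r2 at -2.72 and -2.74 and Ppp3ca and Ppp3r1 at 0.44 and 1.27, although the call of Ppp3ca ended with cyclic loess scaling. Pgk2, the phosphoglycerate kinase of meiotic cells, fell by 4.73 and Pgk1 rose by 3.81, with the limit that the Pgk1 signals equal those of another transcript cluster. Gk2 (-6.23), G6pd2 (-0.92), Tktl1 (-0.54), Eno4 (-1.97), Slc25a31 (-1.33), Papolb (-3.79), Calr3 (-0.95), Pdilt (-2.60), Cetn1 (-1.77) and Cyct (-1.47) fell as well. The widespread forms Gk (0.37), G6pdx (1.46), Tkt (2.15), Eno1 (1.20), Slc25a5 (1.59), Papola (0.37), Calr (0.45), Canx (0.69), Pdia3 (0.90), Cetn2 (0.78) and Cycs (0.47) rose. The rises of Papola, Calr and Cycs turned to -0.08, -0.04 and -0.03 with cyclic loess scaling, and that of Rad21 (0.29) to -0.16. With quantile scaling the calls of Papola, Cycs and Rad21 ended, and that of Cycs ended also with a floor of 64, without 1 week replicate 2 and without either 0 week array.

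The germ cell form fell while its counterpart rose in 28 of 39 measured pairs, and the other pairs are given here. In 6 pairs both forms fell, namely Ldhc and Ldha (-6.03 and -0.44), Hspa1l and Hspa1a (-5.26 and -1.67), Gtf2a1l and Gtf2a1 (-3.88 and -0.43), Pabpc2 and Pabpc1 (-6.07 and -0.48), Aurkc and Aurkb (-0.93 and -0.71), and Ybx2 and Ybx1 (-4.91 and -0.39). Ldha, the widespread lactate dehydrogenase subunit, measured 3126 and 3028 at 1 week, against 4149 and 4189 at 0 weeks, so that its fall was small beside that of Ldhc. The call of Ybx1 ended with median scaling, a floor of 64 and without either 0 week array or 1 week replicate 1. Ccna2 and Taf7 did not pass (-0.23 and -0.09) while Ccna1 and Taf7l fell (-3.74 and -0.57), although Ccna2 fell with quantile and cyclic loess scaling, and Rad21l and Rbmxl2 did not pass on the germ cell side (-0.24 and -0.12). The ferritin gene Fthl17e and its counterpart Fth1 both rose (0.36 and 1.24), Fthl17e not with cyclic loess scaling. Fthl17e, Pabpc2, Tuba3a (-2.87, against 1.45 for Tuba1a) and the ribosomal and histone genes have near-identical copies that probes can share, and their values are uncertain to that extent. Gapdh (4 clusters), Pgk1 (3), Rpl10 (6), Cycs (3), Slc25a5 (3) and Cox7b (2), among others, are each given by the brightest of several transcript clusters. Whether the brightest cluster lies at the gene itself or at a copy elsewhere in the genome was not checked.

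**Figure D3:**
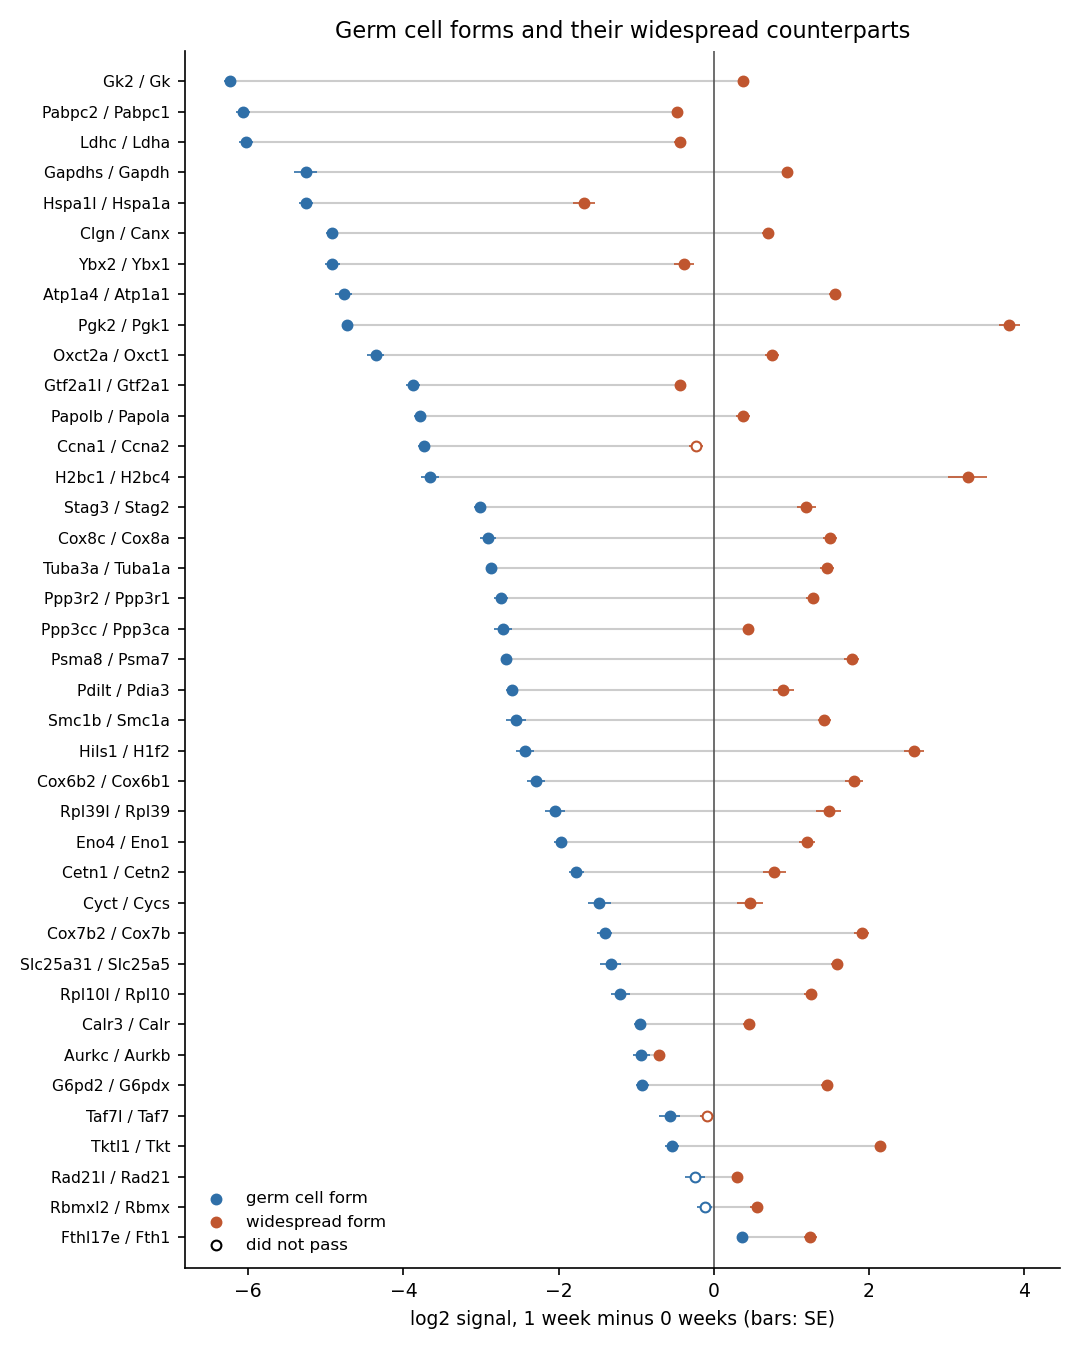
Change in log2 signal (1 week minus 0 weeks, horizontal axis, bars are SE) of the germ cell form (blue) and the widespread form (orange) in 39 gene pairs, sorted by the change of the germ cell form, with open circles for changes that did not pass. Blue points lie left of 0 in all pairs but Fthl17e and Fth1, while most orange points lie right of 0.

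Somatic cells of the testis moved apart. Of fibroblast and mesenchyme genes, 27 of 29 rose, 2 fell and 0 did not pass, with a median change of 2.12, and the summed signal of the list was 55125 and 54885 at 1 week, against 11296 and 12766 at 0 weeks. Lum, a proteoglycan of connective tissue, measured 1477 and 1837 at 1 week, against 62.6 and 58.1 at 0 weeks (4.77 ± 0.14), and Thy1, a surface protein of fibroblasts and of cultured germline stem cells, 2149.6 and 1996 at 1 week, against 101 and 110.0 at 0 weeks (4.30 ± 0.07). The 2 members that fell were Tcf21 (-1.18), a transcription factor of interstitial mesenchyme, and Pi16 (-0.45). Of the defining markers, Col1a1 rose by 3.26, Pdgfra by 1.20 and Dcn by 1.00. Of mesenchymal and gonadal transcription factors 17 of 30 rose, 5 fell and 8 did not pass, with a median change of 0.47. Twist2 (3.31) and Foxc2 (2.44) rose beside Prrx1 and Runx1, while Nr0b1 (-1.96) of Sertoli and Leydig cells and Osr2 (-1.66) fell.

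Genes of Leydig cells, which make testosterone, mostly fell. Of them, 11 of 16 fell, 2 rose and 3 did not pass, with a median change of -0.50. Cyp17a1, an enzyme of androgen synthesis, measured 76 and 66.5 at 1 week, against 4973 and 5011 at 0 weeks (-6.13 ± 0.12, adjusted p = 1.2e-10), Cyp11a1, which starts steroid synthesis, 155 and 184 at 1 week, against 964 and 964 at 0 weeks (-2.51 ± 0.10), and Hsd3b6 fell by 2.82. The 1 week signals of Cyp17a1 lay near the lower quartile of their arrays, and Star, which carries cholesterol into mitochondria, was at -0.33 ± 0.12. With a floor of 64, 7 members fell. Of Sertoli cell genes, 14 of 24 fell, 6 rose and 4 did not pass, with a median change of -0.63. Clu, an abundant secreted chaperone, measured 319 and 348 at 1 week, against 1511 and 1542 at 0 weeks (-2.20 ± 0.15), Inha (-2.70), a subunit of inhibin, and Aard (-2.08) fell, whereas Ctsl, a lysosomal protease, and Kitl, the ligand of KIT, rose by 1.72 and 1.55. The defining markers went different ways, with Sox9 at 1.00 ± 0.08, Wt1 at -0.79 ± 0.10 and Amh at 0.22 ± 0.12, which did not pass.

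Of peritubular myoid and smooth muscle genes 4 of 14 rose, 6 fell and 4 did not pass. Each list here stands beside the shares of all genes, of which 30.3% rose and 27.5% fell. Myh11, the myosin of differentiated smooth muscle, measured 127 and 126 at 1 week, against 379 and 506 at 0 weeks (-1.80 ± 0.12), while Tagln, Cald1 and Tpm2, which fibroblasts in culture also make, rose by 3.16, 3.01 and 2.22. Acta2 measured 5516 and 5839.8 at 1 week, against 4009 and 4604 at 0 weeks and did not pass (0.40 ± 0.25). Macrophage genes fell in 13 of 22 cases and rose in 3, with the Fc receptor gene Fcgr3 at 74 and 73.8 at 1 week, against 357 and 352 at 0 weeks (-2.26 ± 0.08) and Aif1 and C1qb at -2.06 and -1.56. Cd14 rose (0.62), the defining markers Csf1r, Adgre1 and Cd68 were at -0.32, -0.43 and 0.41, and the summed macrophage signal was 2315 and 2328 at 1 week, against 2946 and 3117 at 0 weeks. Most macrophage genes were dim, as 4 of the 22 lay above the array median at 1 week and 7 at 0 weeks. Endothelial genes fell in 7 of 18 cases, with Cdh5, the cadherin of vessels, at -1.12 ± 0.12, and rose in 1, the receptor gene Flt1 (2.71). Pecam1 and Kdr did not pass, at -0.05 and -0.19. Of 18 lymphocyte genes 15 did not pass, and Cd3e rose (0.83) while Cd3d (-0.26) and Ms4a1 (-0.22) fell in calls that ended with each other scaling. Only 1 of these 18 genes lay above the array median in each group. Of 8 erythroid and platelet genes 5 did not pass and 3 rose, the largest being Ppbp (2.07). Of 24 keratin and epithelial junction genes 16 did not pass, 6 rose and 2 fell, with Krt20 at 0.87, Krt19 at 0.68 and Cgn at -0.46. All changes described below were measured beside these shifts in fibroblast and spermatid genes, and their part in each was not tested.

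**Figure D4:**
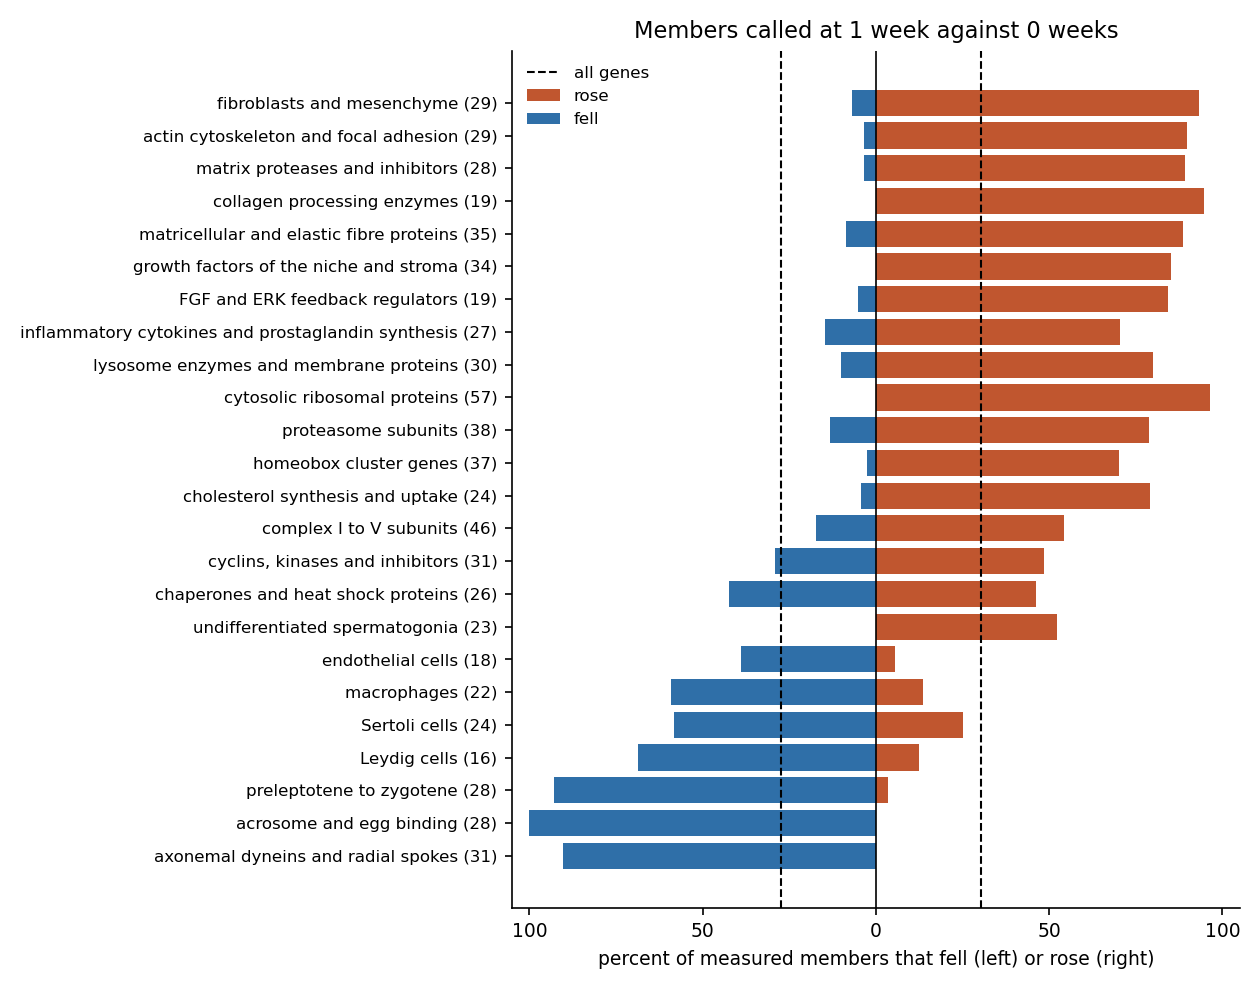
Percent of the measured members of 24 gene lists that fell (left of 0) or rose (right of 0) at 1 week against 0 weeks, with the number of measured members in brackets and dashed lines at the shares of all genes, 27.5% and 30.3%. Matrix, actin and fibroblast lists extend far past the right line and sperm lists past the left line, while chaperones extend past both. The lines hold for all genes and are not matched to the signals of a list.

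Genes that build and remodel extracellular matrix rose in large numbers. Of collagens, 17 of 25 rose, 2 fell and 6 did not pass, with a median change of 1.38. Col12a1, a fibril-associated collagen, measured 3963 and 3872 at 1 week, against 89.7 and 85.1 at 0 weeks (5.49 ± 0.10), Col1a1 5099 and 4937 at 1 week, against 521 and 525 at 0 weeks (3.26 ± 0.09), and Col3a1 rose by 2.95. The basement membrane collagens Col4a4 and Col4a3 fell by 0.89 and 0.51. Enzymes that hydroxylate, trim and crosslink collagen rose in 18 of 19 cases and fell in 0 (median 2.36). Lox, which crosslinks collagen and elastin, measured 7566 and 7638 at 1 week, against 84.4 and 92.6 at 0 weeks (6.43 ± 0.17), and Loxl2, Bmp1 and P4ha3 rose by 4.44, 3.33 and 3.25.

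Matricellular and elastic fibre genes rose in 31 of 35 cases (median 2.21). Tnc, which encodes tenascin C, a protein of wounds and embryos, measured 9206 and 9368 at 1 week, against 88.4 and 94.5 at 0 weeks (6.67 ± 0.13), Thbs1 9986 and 10747 at 1 week, against 99.7 and 106 at 0 weeks (6.66 ± 0.16) and Spp1, osteopontin, 7289 and 7042 at 1 week, against 109 and 118 at 0 weeks (5.98 ± 0.16). All lay between the lower quartile and the median of the 0 week arrays. Ltbp4, a carrier of latent TGF-beta, fell by 2.08, and Eln, elastin, by 0.49, a call that ended without 1 week replicate 2, without either 0 week array and with a floor of 64. Of laminins, nidogens and perlecan 9 of 14 rose, 3 fell and 2 did not pass, with a median change of 0.39. Lama4 (2.63), Lamc1 (2.60), Nid1 (2.40) and Hspg2 (2.14) rose, and Lamc3 (-1.61) and Lama2 (-1.06) fell. Of integrins 10 of 20 rose, 2 fell and 8 did not pass, with a median change of 0.37. Itga5, the fibronectin receptor subunit, measured 4587 and 5305 at 1 week, against 107 and 104 at 0 weeks (5.54 ± 0.13), and Itgb1, Itgav and Itgb5 rose by 2.83, 2.82 and 2.68. Itga6, used to enrich spermatogonial stem cells, rose by 2.15, and Itga1 and Itga8 fell by 1.23 and 0.50.

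Proteases of the matrix and their inhibitors rose in 25 of 28 cases, with 1 fall (Timp4, -0.22, in a call that ended with each other scaling, a floor of 64, the 4 arrays alone, and without 1 week replicate 2 or 0 week replicate 1) and a median of 2.30. Timp1, an inhibitor of metalloproteases, measured 7634 and 8505 at 1 week, against 96.6 and 85.5 at 0 weeks (6.47 ± 0.30), Mmp3, the protease stromelysin, 4024 and 3943 at 1 week, against 74 and 69.3 at 0 weeks (5.80 ± 0.10), and Serpinb2, an inhibitor of plasminogen activators, 4135 and 4515 at 1 week, against 81.7 and 75.6 at 0 weeks (5.78 ± 0.21). The promoters of this list are shown because metalloprotease genes are textbook targets of AP-1, a pair of FOS and JUN family proteins. The letters TGACTCA, searched on both strands in windows from 250 bases before to 50 bases after RefSeq gene starts (GRCm38.p6), occurred in 6 of 20 members with a window, or 30%, against 5.37% of 14938 tested genes. The 6 genes were Mmp3, Mmp7, Mmp10, Mmp12, Mmp13 and Plaur. All but Plaur belong to the same gene family, and the windows of Mmp3, Mmp10 and Mmp13 lie near each other on chromosome 9. Their matches may therefore not be independent, which the share of 30% does not take into account. Of the 6 genes, 4 are printed, chosen after their values were seen. Each line gives the 100 bases before the gene start, 5′ to 3′ on the plus strand, with the match in capitals.
Mmp3, chr9:7445722-7445821: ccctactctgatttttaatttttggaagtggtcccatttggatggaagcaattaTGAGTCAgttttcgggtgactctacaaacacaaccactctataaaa
Mmp10, chr9:7502242-7502341: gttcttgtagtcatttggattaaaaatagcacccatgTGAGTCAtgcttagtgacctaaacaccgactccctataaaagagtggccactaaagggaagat
Mmp13, chr9:7272414-7272513: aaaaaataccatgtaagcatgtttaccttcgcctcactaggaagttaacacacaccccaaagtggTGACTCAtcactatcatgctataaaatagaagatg
Plaur, chr7:24462383-24462482: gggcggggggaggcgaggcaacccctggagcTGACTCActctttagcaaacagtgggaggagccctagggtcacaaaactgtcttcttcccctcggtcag

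The match began 46, 63, 35 and 69 bases before the start of Mmp3, Mmp10, Mmp13 and Plaur. Mmp10, a second stromelysin, measured 541 and 536 at 1 week, against 104 and 107 at 0 weeks (2.35 ± 0.07), and Mmp13, a collagenase, 2867 and 2948 at 1 week, against 75.4 and 66.7 at 0 weeks (5.36 ± 0.08). Plaur, the urokinase receptor, measured 1340.4 and 1341 at 1 week, against 127 and 100.2 at 0 weeks (3.57 ± 0.11). Of the other genes with these letters, Mmp12, an elastase, was at 0.35 ± 0.07 (adjusted p = 0.0014), and Mmp7, which did not pass, at -0.18. Among inflammatory genes the letters occurred in 7 of 22 windows (31.8%), those of Il6, Il1a, Il1rn, Il11, Lif, Ptgds and Tnfaip3. Ptgds was among the members that fell. Every list was searched, and the shares of inflammatory and matrix protease genes were the highest. Other lists in which most members rose had lower shares. The letters occurred in 0 of 13 windows of collagen processing enzymes, 0 of 16 of YAP and SRF targets and 0 of 23 of the TGF-beta and BMP pathway. They occurred in 1 of 20 for collagens, 1 of 26 for growth factors, and 4 of 25 each for actin and lysosome genes. Of genes that rose by at least 8-fold, 12.5% of 168 windows held these letters, and of genes that fell by at least 8-fold 5.38% of 372. At a 2-fold change the shares were 6.06% of genes that rose and 4.7% of those that fell. A match is a description of these letters and not a measured binding site.

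The cyclic AMP response element, TGACGTCA, was searched in the same windows because the factor CREM acts on spermatid genes through it. It occurred in 2.74% of tested genes and in 2 of 22 round spermatid genes, Izumo1 and Spag4, printed in the same form and chosen for the match.
Izumo1, chr7:45621711-45621810: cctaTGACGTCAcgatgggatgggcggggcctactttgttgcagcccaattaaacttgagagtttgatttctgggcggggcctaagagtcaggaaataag
Spag4, chr2:156065113-156065212: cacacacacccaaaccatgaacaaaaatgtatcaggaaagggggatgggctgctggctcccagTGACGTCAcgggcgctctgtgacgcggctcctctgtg

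Izumo1, the sperm protein that binds the egg, measured 63.5 and 63.2 at 1 week, against 380.1 and 417 at 0 weeks (-2.65 ± 0.08), and Spag4, of the spermatid nuclear envelope, 139 and 136 at 1 week, against 813 and 769 at 0 weeks (-2.52 ± 0.08). Of genes that fell by at least 8-fold, 1.34% held the full element, and of those that rose by at least 8-fold 2.38%. At a 2-fold change the shares were 3.43% of genes that fell and 3.39% of those that rose. Half-sites, which CREM also binds, were not searched.

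The measured members of AP-1 themselves moved in different directions, and Fosl1 and Jund were not measured. In the wider list of immediate early transcription factors, which also held genes outside AP-1, 14 of 21 rose, 3 fell and 4 did not pass. Its median change was 0.88. Fos, whose mRNA appears within minutes of a stimulus, measured 280.3 and 278 at 1 week, against 474 and 619.5 at 0 weeks (-0.96 ± 0.15), and Jun 317 and 319 at 1 week, against 501 and 628 at 0 weeks (-0.82 ± 0.11). Both were lower at 1 week than at 0 weeks, and the cause was not tested. Fosl2 measured 1107 and 1177 at 1 week, against 167 and 171 at 0 weeks (2.76 ± 0.12), and Maff rose by 2.47. The orphan nuclear receptors Nr4a2 and Nr4a3 rose by 3.46 and 3.12.

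Actin and focal adhesion genes rose in 26 of 29 cases (median 2.46). Myh9, the non-muscle myosin of stress fibres, measured 3325 and 3072 at 1 week, against 233 and 242 at 0 weeks (3.75 ± 0.08), and Tagln2 2555 and 2700.3 at 1 week, against 177 and 201 at 0 weeks (3.80 ± 0.08). Myl9 fell by 0.63, a call that ended with median scaling, a floor of 64, without 1 week replicate 1 and without 0 week replicate 2. Targets of YAP and SRF, factors that respond to spreading and tension, rose in 17 of 20 cases (median 2.06), among them Ankrd1 at 898 and 967 at 1 week, against 71.1 and 68 at 0 weeks (3.74 ± 0.07), Vcl (3.26) and the YAP partner Tead1 (3.16). Among tetraspanins, the family of the sorted protein, 12 of 20 rose, 3 fell and 5 did not pass, with a median change of 0.81. Cd9 itself measured 667 and 692 at 1 week, against 169 and 197 at 0 weeks (1.90 ± 0.09, adjusted p = 3.3e-08), and Cd63, of endosomes, 3182 and 3660.2 at 1 week, against 375 and 484 at 0 weeks (3.00 ± 0.19). Tspan4 and Tspan5 rose by 2.33 and 1.80, and Tspan13 and Cd37 fell by 1.31 and 0.47, the last not without 1 week replicate 2 or 0 week replicate 1. Epcam, an epithelial adhesion protein of spermatogonia, measured 169 and 176 at 1 week, against 218 and 178 at 0 weeks and did not pass (-0.19 ± 0.12), but fell with cyclic loess scaling.

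Inflammatory genes rose in 19 of 27 cases and fell in 4 (median 1.89). Ptgs2, the inducible cyclooxygenase of prostaglandin synthesis, measured 6006 and 6055 at 1 week, against 83.3 and 84.6 at 0 weeks (6.17 ± 0.12), Saa3, an acute phase protein, 4905 and 4828 at 1 week, against 71 and 74.9 at 0 weeks (6.06 ± 0.21), and Il6, a cytokine, 917 and 1071 at 1 week, against 38.2 and 37.5 at 0 weeks (4.71 ± 0.24). The receptor gene Osmr rose by 4.15, while Tnf, which macrophages secrete, fell by 0.92 and the prostaglandin D synthase gene Ptgds by 1.00. Of chemokines 17 of 26 rose and 4 fell (median 0.68). Cxcl5, which draws neutrophils, measured 728 and 812 at 1 week, against 53.8 and 46.9 at 0 weeks (3.94 ± 0.13), and Cxcl14 and Ccl7 rose by 3.34 and 3.74. Cxcl12, a chemokine that holds stem cells in the niche, measured 473 and 482 at 1 week, against 110.5 and 107 at 0 weeks (2.13 ± 0.09). Ccl3, a product of activated macrophages, went the other way, at 147 and 137 at 1 week, against 1050.5 and 1279 at 0 weeks (-3.03 ± 0.11). Of complement and pentraxin genes 7 of 19 rose, 5 fell and 7 did not pass, with a median change of 0.10. These counts lay near the shares of all genes, of which 30.3% rose and 27.5% fell. Ptx3 (3.83), C3 (2.72), Cd55 (2.50) and Cfb (1.84) rose, and C7 (-1.63) and C1qb (-1.56) fell.

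Growth factor genes of niche and stroma rose in 29 of 34 cases and fell in 0 (median 1.86, with 1 fall under quantile scaling). Inhba, a subunit of activin, measured 6494 and 6628 at 1 week, against 132 and 107 at 0 weeks (5.79 ± 0.20), and Ereg, an EGF family ligand, 1759 and 1784 at 1 week, against 79.4 and 73.7 at 0 weeks (4.53 ± 0.20). Fgf2 and Gdnf, whose proteins were also added to the medium, had mRNA signals of 230.2 and 241 at 1 week, against 61.1 and 65.1 at 0 weeks (1.90 ± 0.07) and 178 and 169 at 1 week, against 111 and 104 at 0 weeks (0.69 ± 0.10). Of receptor tyrosine kinases 22 of 34 rose, 5 fell and 7 did not pass, with a median change of 0.94. Pdgfrb, the receptor of PDGF in mesenchyme, measured 1886 and 1810.4 at 1 week, against 173 and 177 at 0 weeks (3.40 ± 0.09), and Egfr, Ddr2 and Fgfr1 rose by 3.27, 3.27 and 3.18. Kit fell, as given above, and Tek by 0.41. Feedback regulators of FGF and ERK signalling rose in 16 of 19 cases (median 2.01), with Spred2 at 1737 and 1741 at 1 week, against 188 and 172 at 0 weeks (3.27 ± 0.08) and the phosphatase gene Dusp4, Spred1 and Spry2 at 3.13, 2.94 and 2.89, while the transcription factor gene Etv1 fell by 0.39.

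Of the TGF-beta and BMP pathway 27 of 34 rose, 2 fell and 5 did not pass, with a median change of 1.06. Fstl1, a secreted binding protein, measured 4723 and 4442 at 1 week, against 327 and 369 at 0 weeks (3.72 ± 0.11), Id3, a BMP target, 1434 and 1543 at 1 week, against 147 and 170.4 at 0 weeks (3.23 ± 0.09) and Smad3, which carries TGF-beta signals, 1889 and 1896 at 1 week, against 199.9 and 234 at 0 weeks (3.13 ± 0.09). Bmp7 fell by 0.59. Of the WNT pathway 17 of 34 rose, 2 fell and 15 did not pass, with a median change of 0.37. Sfrp2 and Sfrp1, secreted antagonists of WNT, rose by 4.37 and 3.18, the ligand Wnt5a by 3.20 and the antagonist Dkk2 by 2.99. Lef1, a transcription factor of the pathway, measured 110.4 and 104.5 at 1 week, against 342 and 353 at 0 weeks (-1.69 ± 0.10). Of Hedgehog and Notch genes 9 of 24 rose and 6 fell, near the shares of all genes (median -0.08, and 0.07 with quantile scaling). The Notch ligand gene Jag1, the receptors Notch1 and Notch2 and the target Hey1 rose by 3.52, 2.40, 2.30 and 1.95. Ptch1, a receptor and target of Hedgehog signalling in Leydig and myoid cells, measured 220.1 and 245 at 1 week, against 579 and 700.5 at 0 weeks (-1.46 ± 0.10).

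Retinoic acid drives spermatogonial differentiation, and of its pathway 9 of 21 rose, 6 fell and 6 did not pass, with a median change of 0.10. These counts stand beside the 30.3% of all genes that rose and the 27.5% that fell. The synthesis enzymes went opposite ways, with Aldh1a3 at 803 and 813 at 1 week, against 103 and 101 at 0 weeks (2.98 ± 0.09) and Aldh1a1 at 125 and 149 at 1 week, against 736 and 861 at 0 weeks (-2.55 ± 0.11). Crabp1 measured 7864 and 7193 at 1 week, against 1043 and 1209 at 0 weeks, and Rdh11, a retinal reductase, fell by 2.26. Homeobox cluster genes rose in 26 of 37 cases (median 0.54), including Hoxc6 at 394 and 571 at 1 week, against 109 and 111 at 0 weeks (2.11 ± 0.14) and Hoxc8, Hoxb2 and Hoxa5 at 1.96, 1.42 and 1.41. Most were dim at the start, as 8 of the 37 lay above the array median at 0 weeks and 22 at 1 week. The member that fell was Hoxa4, which is known to be transcribed in meiotic and later male germ cells, at 205 and 165 at 1 week, against 473 and 386 at 0 weeks (-1.22 ± 0.20). Of X-linked cancer-testis and reproductive homeobox genes 9 of 26 fell, 4 rose and 13 did not pass, with a median change of -0.11. The shares of all genes were 27.5% that fell and 30.3% that rose. Tex16 and Tsga8 were at -1.15 and -1.48 and Maged1 and Magee1 at 1.39 and 0.87.

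Cell cycle genes went both ways, as 15 of 31 cyclins, kinases and inhibitors rose and 9 fell (median 0.27). Of the 31 genes, 25 lay above the array median at 1 week and 26 at 0 weeks. Among all 8869 genes above it in both groups, 4159 rose and 2350 fell. Ccnd1, the cyclin of the G1 phase that growth factors induce, measured 3080.2 and 3308 at 1 week, against 290.4 and 331 at 0 weeks (3.36 ± 0.09), beside the rise of Cdkn1a. Ccna1, the cyclin of male meiosis, measured 82.9 and 81.5 at 1 week, against 1176 and 1024 at 0 weeks (-3.74 ± 0.08), and Cdkn3 fell by 3.71. Cdkn2a, which stops stressed or aged cells in culture, measured 326 and 317 at 1 week, against 165 and 138 at 0 weeks (1.09 ± 0.10). Of apoptosis regulators 18 of 28 rose, 3 fell and 7 did not pass, with a median change of 0.73. Tnfrsf10b, a death receptor, measured 1009 and 977 at 1 week, against 117 and 113 at 0 weeks (3.11 ± 0.07), and Casp8 and Bcl2l11 rose by 2.93 and 2.72, while Bcl2l14 fell by 3.26 and Birc2 by 0.81. Replication-dependent histones had no common direction, with 7 of 15 higher and 6 lower, among them H1f1 and H2ac15 at -1.18 and -1.10.

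Cytosolic ribosomal protein genes rose in 55 of 57 cases and fell in 0 (median 1.01), of 74 listed. Rps4x measured 2437 and 2303 at 1 week, against 526 and 577 at 0 weeks (2.10 ± 0.08), Rpl24 1403 and 1653 at 1 week, against 469 and 530.5 at 0 weeks (1.61 ± 0.14), and Rpl23a and Rpsa rose by 1.61 and 1.57. With cyclic loess scaling 44 rose and 5 fell (median 0.58). Mitochondrial ribosomal proteins rose in 38 of 56 cases and fell in 7 (median 0.37, and 25 and 13 with cyclic loess). Mrpl23 and Mrps21 rose by 1.28 and 1.23, and Mrpl1 and Mrps5 fell by 0.67 and 0.65. Proteasome subunits rose in 30 of 38 cases and fell in 5 (median 0.49, and 17 and 13 with cyclic loess). Psma2 rose by 1.67. Psme4, the activator that degrades acetylated histones in spermatids, measured 776 and 875 at 1 week, against 2280.2 and 2242 at 0 weeks (-1.46 ± 0.10), and fell together with Psma8. Of tRNA synthetases 22 of 35 rose, 4 fell and 9 did not pass, with a median change of 0.47. The cytosolic enzymes Rars, Nars, Tars and Sars rose by 2.34, 2.34, 2.28 and 1.92, and Fars2, a mitochondrial enzyme, and Vars fell by 0.86 and 0.80. Of chaperones 12 of 26 rose and 11 fell. Those that fell most were testis forms, Hspa1l, Clgn, Dnajb13 (-4.09) and Dnajb3 (-3.97), and Hspb8 and the mitochondrial Hspd1 rose by 3.16 and 1.76.

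Lysosome genes rose in 24 of 30 cases (median 1.76). Ctsd, a protease, measured 3926 and 3731 at 1 week, against 473 and 570.5 at 0 weeks (2.88 ± 0.09), Ctsz and Ctsk rose by 2.83 and 2.40, and Gm2a, a lipid binding activator, fell by 1.62. Respiratory chain subunits rose in 25 of 46 cases and fell in 8 (median 0.23), but 17 rose and 18 fell with cyclic loess scaling. Ndufa4 rose by 1.81, and Ndufv2 and Uqcrc1 fell by 1.10 and 0.64. In the citric acid cycle 11 of 19 rose, 4 fell and 4 did not pass, with a median change of 0.36. Mdh2, Idh3a and Mdh1 rose by 1.43, 1.07 and 1.05, and Sucla2, a succinyl-CoA ligase subunit, fell by 1.59 and Pdhb by 0.61.

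Sugar transporters went opposite ways. Slc2a5, a fructose transporter of sperm, measured 71.8 and 64.2 at 1 week, against 3064 and 2892 at 0 weeks (-5.45 ± 0.10), and fell together with Slc2a3 and Sord. Slc2a1, the glucose transporter of most growing cells, measured 3765 and 3496 at 1 week, against 289 and 333 at 0 weeks (3.55 ± 0.09), and Slc38a1, which carries glutamine, rose by 3.11. Of the whole transporter list 15 of 30 rose and 6 fell (median 0.42). Among genes of fatty acid synthesis and desaturation 9 rose and 7 fell of 20 (median 0.07, and -0.10 with cyclic loess). The shares of all genes were 30.3% that rose and 27.5% that fell. Elovl2, which elongates the very long polyunsaturated fatty acids of spermatids, measured 51.9 and 52.1 at 1 week, against 1037 and 1107 at 0 weeks (-4.36 ± 0.06), and Dgat2 fell by 1.87. Fads3, Scd1 and Elovl1 rose by 3.51, 2.65 and 2.65. Of fatty acid oxidation 13 of 20 rose, 3 fell and 4 did not pass, with a median change of 0.37, with Acadl, Etfb and Cpt1a at 1.59, 1.57 and 1.31 and Hadha and Cpt2 at -0.91 and -0.89. Cholesterol synthesis and uptake genes rose in 19 of 24 cases (median 0.67), including Hsd17b7 (2.36) and Msmo1 (2.16). Fdft1, squalene synthase, was the member that fell, at 538 and 529 at 1 week, against 1721 and 1938 at 0 weeks (-1.78 ± 0.08).

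Genes of the hypoxia response rose in 14 of 19 cases (median 1.22), with Vegfa, the vessel growth factor, at 1326 and 1297 at 1 week, against 156 and 160.3 at 0 weeks (3.05 ± 0.07), and P4ha1 and Ddit4 at 2.92 and 2.86. Kdm3a, a histone demethylase that spermatids need, measured 399.9 and 458 at 1 week, against 941 and 964 at 0 weeks (-1.15 ± 0.13). Of metallothionein and iron genes 11 of 17 rose, 3 fell and 3 did not pass, with a median change of 0.44, with the heme oxygenase gene Hmox1 at 3062 and 2857 at 1 week, against 214 and 245 at 0 weeks (3.69 ± 0.10), Aco1 and Slc11a2 at 1.34 and 1.24, and Mt1 and Mt3 at -0.55 and -0.32. The fall of Mt3 ended with median scaling, each higher floor, the 4 arrays alone and without 1 week replicate 2 or 0 week replicate 1. Glutathione transferases and redox genes divided by gene, as 16 of 29 rose and 12 fell. Gsto1, a transferase, measured 2716 and 2772 at 1 week, against 95.6 and 97 at 0 weeks (4.83 ± 0.10), and its neighbour in the family Gsto2 243 and 252 at 1 week, against 1007 and 1108 at 0 weeks (-2.09 ± 0.09). Gpx3, Srxn1 and Gpx8 rose by 4.04, 3.60 and 3.41, and Gstm1, an abundant transferase of testis somatic cells, measured 474 and 460.3 at 1 week, against 2776 and 2737 at 0 weeks (-2.56 ± 0.12). Of circadian clock genes 9 of 17 rose, 4 fell and 4 did not pass, with a median change of 0.44, with Nfil3, Bhlhe40, Arntl and Csnk1e at 2.85, 2.67, 2.18 and 1.91 and Cry1 and Npas2 at -0.57 and -0.54.

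Among genes of DNA methylation and chromatin repression 13 of 29 fell, 8 rose and 8 did not pass, with a median change of -0.08, and 0.03 with median scaling. The shares of all genes were 27.5% that fell and 30.3% that rose. Ezh2, the methylase of Polycomb, measured 298 and 331 at 1 week, against 1392 and 1388 at 0 weeks (-2.15 ± 0.10), Phc1 and Sfmbt1 fell by 1.52 and 1.52, and the demethylation gene Tet2 and the deacetylase gene Hdac5 rose by 1.41 and 1.34. Of histone methylases and demethylases 14 of 29 rose, 9 fell and 6 did not pass, with a median change of 0.14. With cyclic loess scaling 10 rose and 11 fell (median 0.02). Of these 29 genes, 25 lay above the array median at 1 week and 24 at 0 weeks. Among all 8869 genes above it in both groups, 4159 rose and 2350 fell. Kdm4d, a demethylase of the testis, measured 79 and 69.1 at 1 week, against 517 and 528 at 0 weeks (-2.82 ± 0.13), and Kdm6b, Kdm5c and Smyd2 rose by 2.04, 1.67 and 1.51.

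Most genes that are commonly used to normalise quantitative PCR changed, as did 57.8% of all genes. Of 19 such genes 14 rose, 2 fell and 3 did not pass (median 0.61, and 10 and 7 with cyclic loess). All 19 lay above the array median at 1 week and 18 at 0 weeks. Among all 8869 genes above it in both groups, 4159 rose, 2350 fell and 2360 did not pass. B2m measured 4918 and 4831 at 1 week, against 668 and 847 at 0 weeks (2.70 ± 0.15), Hprt 701 and 856 at 1 week, against 141 and 172 at 0 weeks (2.32 ± 0.14), and Gusb, Tubb5, Rpl13a and Rps18 rose by 1.81, 1.69, 1.45 and 1.11. Tbp, the TATA binding protein that male germ cells make in large amounts, fell to 556 and 558 at 1 week, against 1891 and 2085 at 0 weeks (-1.83 ± 0.07), and Sdha fell by 0.32. Ywhaz, Tfrc, Rplp0, Actb, Ppia and Eef1a1 rose by 0.71, 0.49, 0.61, 0.51, 0.30 and 0.19. With cyclic loess scaling Actb, Ppia and Eef1a1 turned to -0.03, -0.21 and -0.34, and the rise of Rplp0 ended there and with quantile scaling. The rise of Ppia ended with quantile scaling, and that of Eef1a1 with the 4 arrays alone and without any 1 of them. Polr2a, the large subunit of RNA polymerase II, measured 1133 and 1149 at 1 week, against 1169 and 1240.3 at 0 weeks and did not pass, with a 95% interval of -0.24 to 0.09, but fell with quantile and cyclic loess scaling.

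**Figure D5:**
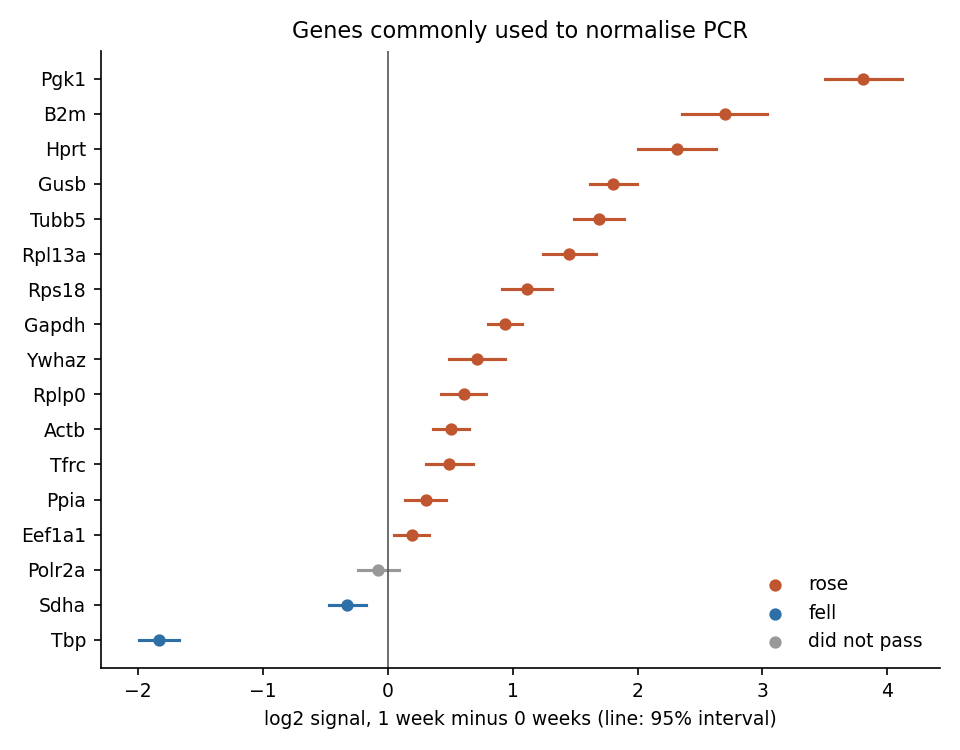
Change in log2 signal (1 week minus 0 weeks, horizontal axis) of 17 of the 19 genes commonly used to normalise PCR, with 95% intervals of the fit as lines. Values run from -1.83 for Tbp to 3.81 for Pgk1, the interval of Polr2a includes 0, and Actb, Ppia and Eef1a1 lie right of 0 but turn left of it with cyclic loess scaling. The Pgk1 signals equal those of another transcript cluster.

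Few genes differed between replicates. Of genes above the array median, 2 of 10200 differed by over 2-fold between the 1 week arrays and 1 of 10105 between the 0 week arrays. The pairs of signals at 1 week were 316 and 797 for Cwc22, a splicing factor, and 584 and 287 for Olfr767, annotated as an odorant receptor. At 0 weeks Gstm3 had 217 and 741, against 168 and 176 at 1 week, and its fall of 1.22 ended with median scaling, a floor of 64, the average of its clusters, a fit of the 4 arrays alone and without either 1 week array. The next gaps were in Morf4l2, Rny1 and Gm3365 at 1 week and in Mllt11, Gm4871, Taf7l2 and Lama2 at 0 weeks. Lama2, a laminin of muscle, measured 198 and 255 at 1 week, against 367 and 598 at 0 weeks, and its fall rests on 0 week arrays that lay further apart than for most genes.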

How the data were processed

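RNA of all 10 samples had been hybridised to Affymetrix Mouse Gene 1.0 ST arrays. The intensity values were taken as the authors deposited them, linear signals of 28856 transcript clusters annotated on mm9 (release na32, per the file headers). How the probes were corrected, summarised and scaled is not given in the sources used here. Fold values, a ratio of 3 week to 0 week means in the authors' deposited table, were not used.

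A floor of 1, which no value reached, came before log2. The 22439 clusters with 1 gene symbol gave 20174 genes, the brightest cluster standing for the 1333 genes with several. Of the symbols, 17440 were current, 2023 were updated and 737 kept, through RefSeq names (GRCm38.p6, another build, so no coordinates of genes on the array are given). Group means of all 5 groups were fitted with limma 3.58.1 (lmFit, eBayes) in R 4.3.3, with 5 residual and 4.39 prior degrees of freedom, and 1 week minus 0 weeks was a contrast. P-values were adjusted by Benjamini-Hochberg over all genes, and an adjusted p under 0.05 passed. The code was tested on simulated data.

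Named genes were the 15 largest rises and falls that passed without overlap and above the array median in both groups, all isozyme pairs, up to 4 passing members per list and 2 in the other direction, PCR reference genes, a panel of 18 genes and the 5 largest replicate gaps per group. Markers of cell types and genes of printed promoters are named besides, and a few genes that the rule picks are not reported here. The members, lists and rules were chosen with earlier results of these data known. Promoter windows of RefSeq matched 14938 of the genes tested.

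Alternatives were 3 other scalings (quantile, median, cyclic loess), leaving out dim genes (12675 kept), floors of 32 and 64 (64 chosen after seeing the data), averaged clusters, a trended robust eBayes, the 4 arrays alone, a minimum of 2-fold, a replicate block and leaving out each array.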

Additional observations from a re-analysis of the deposited data

How the results depend on the processing

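The 11664 changed genes numbered 10330 to 12584 under the alternatives that kept all arrays and genes and set no minimum fold, against 9735 of 12675 with the filter on dim genes. With a minimum of 2-fold, 4513 genes were called, 2526 higher and 1987 lower. Leaving out each array in turn gave 10052 to 11053 changed genes, 5552 to 5767 higher and 4500 to 5286 lower. Median scaling moved the median of all genes by 0.11, and the share of higher calls ran from 49.5% with cyclic loess to 61.9% with median scaling, against 52.4%. No label says that a replicate number pairs arrays across groups. Deviations of same-numbered arrays correlated at 0.32 between 1 and 0 weeks and at -0.07 to 0.58 over all pairs of groups, which with only 2 numbers does not settle it. With the replicate block 12584 genes changed, among them all 11664. Of 420 named genes, 7 turned with cyclic loess scaling, namely Actb (-0.032), Calr (-0.0387), Cycs (-0.0271), Eef1a1 (-0.344), Papola (-0.0829), Ppia (-0.208) and Rad21 (-0.161), and Eef1a1 also with quantile scaling (-0.0044). The cause was not tested. Leaving out an array ended the calls of 10 to 14 named genes. Signal over background is not known, so changes between dim signals may be understated.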

Other observations

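Transcript clusters without a single gene symbol entered no list. Of 2815 clusters that carry several symbols, 831 were higher and 1089 lower at 1 week than at 0 weeks (68.2% called, limma, adjusted within the fit of all clusters). Of 3602 clusters with no symbol, 473 were higher and 717 lower (33% called). Of 20174 genes, 2447 had a 95% interval of the change within ±0.25, and 393 of these lay above the array median in both groups.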
